A study of Bos taurus with 18 samples.

Results

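The miR-26 family was taken as 3 of the 1071 miRNAs listed for cattle plasma, namely bta-miR-26a, bta-miR-26b and bta-miR-26c, and these were chosen by name and not by their levels. Small RNA-seq was performed on plasma from 3 Japanese Black steers, sampled at about 20, 25 and 30 months of age during fattening. Each of the 9 plasma samples of 1 mL gave an exosomal (EX) library and a non-exosomal, free circulating (FC) library, so that 18 libraries fell into 6 groups of 3, with the same 3 steers in every group. The labels name no treatment, and the steers were raised on a common feeding system, so groups of a fraction differ in age at sampling. The EX and FC fractions rest on the separation by a commercial spin column kit, and 3 steers from 1 farm limit the groups as a model of the breed.

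miR-26 is a conserved family of small RNAs of about the length of other miRNAs, which guide the silencing complex to messenger RNAs through the seed, bases 2 to 8 of the mature strand. Members with the same seed share most of their predicted targets. The family is known for restraint of cell proliferation, for repression of the histone methyltransferase EZH2 and, in cultured preadipocytes, for promotion of fat cell differentiation. Many tissues and blood cells express it, and circulating copies are found both inside vesicles and bound to proteins.

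The mature sequences below were read from the deposited count table and are shown because only the first and the second share the seed of the family. Capitals mark bases 2 to 8. The last line is a miRNA that the study proposed from unannotated reads, called candidate-miR-26 here. Its number is its place in the study's list of candidates and does not refer to the family.
bta-miR-26a: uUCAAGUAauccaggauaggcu
bta-miR-26b: uUCAAGUAauucaggauagguu
bta-miR-26c: aGCCUAUCcuggauuacuugaa
candidate-miR-26: uCCAAGUAauucaggauagu

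bta-miR-26a and bta-miR-26b are both 22 bases long and matched at 20 of 22 positions. They differed by C11U and C21U, where the base of bta-miR-26a comes first and positions are counted from 1 at the 5′ end. No listed miRNA other than these 2 carried the seed UCAAGUA. The entry bta-miR-26c was the exact reverse complement of bta-miR-26a, so it has another seed. Among all entries, 16 had their reverse complement in the list. candidate-miR-26 has 20 bases and matched bta-miR-26b at 18 of them when aligned from the 5′ end without gaps. It differed from bta-miR-26b by U2C, inside the seed, and by G20U, with the base of bta-miR-26b first.

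In the RefSeq gene table of ARS-UCD2.0, each hairpin gene of the family lies within a gene for a small C-terminal domain phosphatase, an enzyme that acts on the tail of RNA polymerase II. MIR26B lies within CTDSP1, MIR26A-2 within CTDSP2 and MIR26A-1 within CTDSPL. MIR26C was listed at the same interval as MIR26A-1. The table does not tell exons from introns, and its assembly is not the genome to which the reads were mapped, so no positions are given.

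bta-miR-26c had a count of 0 in all 18 libraries. A total of 86067401 counts over these libraries allows a level of up to 0.0349 CPM (the count divided by all counts assigned to miRNAs in the library, scaled to 1000000), taking 3 counts over all libraries as the limit. The limit of a single EX library was 1.08 to 3.03 CPM. For FC libraries, which were deeper, it was 0.248 to 0.83 CPM. These limits cover counting error only, because reads copied by PCR are not independent molecules. bta-miR-26c was 1 of 272 listed miRNAs without a count in any library.

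bta-miR-26a and bta-miR-26b were abundant in every library. Over 9 EX libraries the level was 4786 ± 2404 CPM (mean ± SD) for bta-miR-26a and 16346 ± 3473 CPM for bta-miR-26b, and by these means they were the 41st and 14th of 345 EX miRNAs. Over 9 FC libraries the levels were 5072 ± 2403 and 16786 ± 3626 CPM, which placed them 40th and 13th of 358. These 345 and 358 miRNAs are those above 5 CPM in 3 or more libraries of a fraction. The rank of bta-miR-26b within a library ranged from 7 to 21 in EX and from 9 to 20 in FC. That of bta-miR-26a ranged from 16 to 64 in EX and from 20 to 58 in FC. The family as a whole took between 1.28% and 3.16% of the counts of a library.

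bta-miR-26b exceeded bta-miR-26a in all 18 libraries, by a factor between 2.12 and 6.12 in counts. Both have the same length, so this ratio needs no correction for length, but ligation and PCR can favour either sequence. The deposited counts of bta-miR-26a were not whole numbers in 14 of the 18 libraries, and those of bta-miR-26b in 17, within a tolerance of 0.02 counts. Counts of a read that was divided among several entries take this form, and 324 of the 799 detected miRNAs had such counts. The sum of the 2 members was whole in only 4 of the 18 libraries, so division between these 2 entries alone does not give the values. With which entries their reads were divided, and how many were, cannot be told from the tables.

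The levels of bta-miR-26a in EX were 4115, 4148 and 3699 CPM at 20 months for steers 1, 2 and 3. At 25 months they were 5239, 6833 and 10095 CPM. At 30 months they had come down to 3978, 2083 and 2879 CPM. All 3 libraries at 25 months were thus above all those at 20 and at 30 months, whereas 20 and 30 months overlapped. The increase to 25 months was largest in steer 3 and smallest in steer 1.

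In FC, the levels of bta-miR-26a were 4001, 6260 and 6727 CPM at 20 months. They were 4945, 6404 and 9536 CPM at 25 months and 3274, 2309 and 2191 CPM at 30 months. Here every library at 30 months was below every library at 20 and at 25 months, and the earlier ages overlapped.

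For bta-miR-26b, the EX levels were 17472, 14235 and 17492 CPM at 20 months. They were 16081, 20668 and 21540 CPM at 25 months and 16051, 10766 and 12811 CPM at 30 months. The ranges at 25 and 30 months did not overlap, but they nearly met in steer 1, whose level hardly moved and was the lowest at 25 months and the highest at 30 months.

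The FC levels of bta-miR-26b were 16006, 16033 and 23892 CPM at 20 months. They were 14117, 17589 and 20229 CPM at 25 months and 17674, 12129 and 13410 CPM at 30 months. All 3 ages overlapped, and steer 1 went up from 25 to 30 months while steers 2 and 3 went down.

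**Figure D1:**
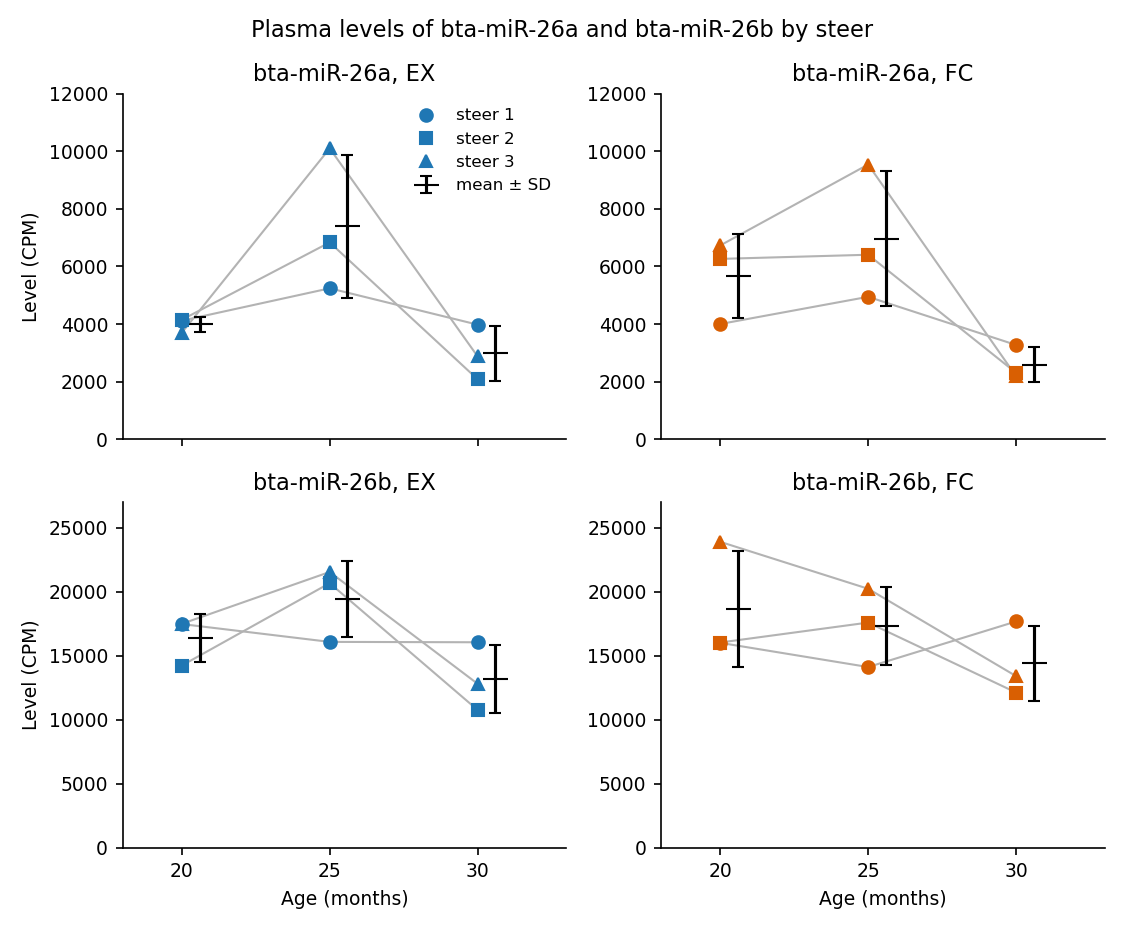
Levels of bta-miR-26a (upper panels) and bta-miR-26b (lower panels) in CPM against age in months, in EX (left) and FC (right). Each symbol is 1 library of a steer, grey lines join the libraries of a steer, and black bars give the mean ± SD of 3 libraries. In both fractions the bta-miR-26a levels at 30 months, 2083 to 3978 CPM for EX and 2191 to 3274 CPM for FC, lie below all levels at 25 months, which start at 5239 and 4945 CPM.

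Ordered by mean level, bta-miR-26a was highest in EX at 25 months (7389 ± 2475 CPM, mean ± SD, n = 3). It was followed by FC at 25 months (6962 ± 2346), FC at 20 months (5663 ± 1458), EX at 20 months (3987 ± 250.4), EX at 30 months (2980 ± 952) and FC at 30 months (2591 ± 594). For bta-miR-26b the order was EX at 25 months (19429 ± 2933 CPM), FC at 20 months (18644 ± 4545), FC at 25 months (17312 ± 3065), EX at 20 months (16399 ± 1875), FC at 30 months (14404 ± 2903) and EX at 30 months (13209 ± 2665). The ranges of each pair of neighbours overlapped in both orders, so no neighbouring groups stood apart. The lowest places belonged to the 30 months groups for both members.

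Changes with age were tested with edgeR's quasi-likelihood F-test in a model of age plus steer, and the FDR (Benjamini-Hochberg) was taken over all miRNAs of the fraction. A miRNA passed when the FDR was under 0.05. From 25 to 30 months, bta-miR-26a fell in EX by 1.77 on the log2 scale (standard error 0.39, 95% confidence interval −2.66 to −0.88, FDR 0.0207), a level 3.41-fold lower at 30 months. It was lower in 3 of 3 steers, by log2 CPM differences of −0.40, −1.71 and −1.81. In EX 14.8% of the miRNAs tested passed in this comparison, 10.7% as lower and 4.06% as higher, and in 19.4% every library at 30 months was below every library at 25 months.

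In FC it fell by 1.50 on the log2 scale (standard error 0.40, interval −2.40 to −0.60, FDR 0.0341), a level 2.82-fold lower. Again this was seen in 3 of 3 steers, with log2 CPM differences of −0.59, −1.47 and −2.12. In FC 18.7% of the miRNAs passed, 11.7% as lower and 6.98% as higher, and 21.8% had lower ranges without overlap. Many plasma miRNAs thus changed between these ages. By log2 fold change alone, whether passed or not, the fall of bta-miR-26a was the 110th largest decrease of 345 in EX and the 59th of 358 in FC. That place counts miRNAs that did not pass, while those that passed as lower numbered 37 in EX and 42 in FC.

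bta-miR-26b fell in EX from 25 to 30 months by 1.02 on the log2 scale (standard error 0.28, interval −1.66 to −0.38, FDR 0.0436), or 2.03-fold. The log2 CPM difference was near 0 in steer 1, and −0.94 and −0.75 in steers 2 and 3. On library totals, to which these differences belong, the log2 fold change of bta-miR-26b was −0.57 (FDR 0.166), which did not pass. In FC its log2 fold change was −0.38 (standard error 0.30, interval −1.05 to 0.30, FDR 0.368), which did not pass. The difference between the fractions in this change was −0.53 (EX minus FC, standard error 0.18, interval −0.94 to −0.13). Its FDR of 0.107 over the 330 miRNAs selected in both fractions did not pass either, against 6.97% of miRNAs that did, a share of 23 miRNAs that came to 10, 0 and 2 miRNAs without steer 1, 2 and 3. Leaving out a steer gave differences of −0.93 to −0.79 for bta-miR-26b, with an FDR of 0.0432 to 0.0767. For bta-miR-26a the difference between the fractions was −0.15 (standard error 0.26, FDR 0.757), with an interval of −0.74 to 0.45 that still holds sizeable differences in either direction. It was −0.61, −0.30 and −0.53 without steer 1, 2 and 3, with normalization and filter repeated on the remaining libraries, and passed in none of these.

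**Figure D2:**
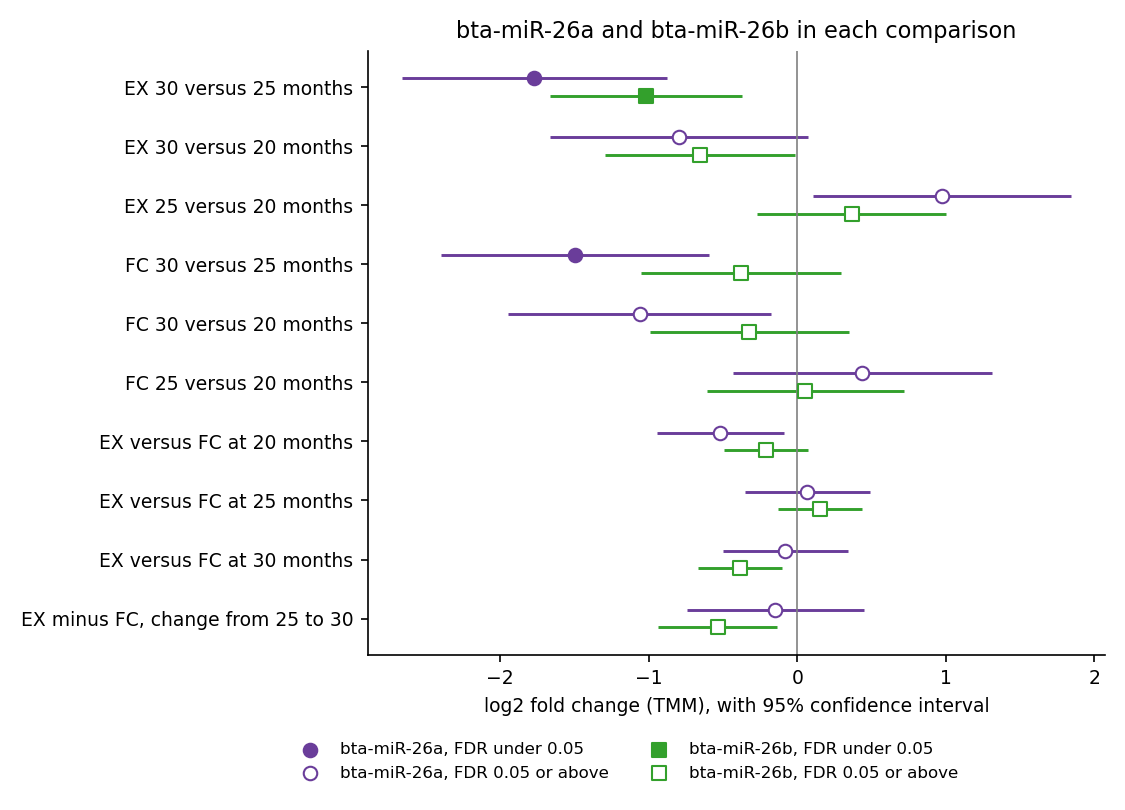
Log2 fold changes of bta-miR-26a (circles) and bta-miR-26b (squares) in each of 10 comparisons, on TMM-normalized counts, with lines for the 95% confidence interval. Filled symbols have an FDR under 0.05 in edgeR, and these are bta-miR-26a from 25 to 30 months in EX (−1.77) and FC (−1.50) and bta-miR-26b in EX (−1.02).

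Some of these calls were lost when a steer was left out. Fits without a steer called fewer miRNAs in general, so a lost call alone does not show dependence on that steer. For bta-miR-26a in EX, the FDR was 0.0803 without steer 2 (log2 fold change −1.64) and 0.131 without steer 3 (−1.35). Over 12 alternative analyses the FDR ranged from 4.18e-05 to 0.131. In FC it was 0.0601 without steer 2 (log2 fold change −1.49) and 0.138 without steer 3 (−0.91). It was 0.0785 when 4 FC libraries were left with their rows as deposited (range 0.000821 to 0.138). The fall itself kept its sign in each of these analyses and ranged from −2.36 to −1.32 in EX and from −2.05 to −0.91 in FC. For bta-miR-26b in EX, leaving out steer 1, 2 or 3 gave log2 fold changes of −1.42, −0.88 or −0.82, with an FDR of 0.0533, 0.244 or 0.189. Of 12 alternatives, 6 passed (FDR range 0.0105 to 0.244). In FC the log2 fold change of bta-miR-26b was −0.74 without steer 1, −0.28 without steer 2 and −0.0042 without steer 3. The number of miRNAs that passed from 25 to 30 months moved as well, from 51 in EX to 15, 25 and 1 without steer 1, 2 and 3, and from 67 in FC to 26, 51 and 10.

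The scale also mattered, since the level of a miRNA is relative to the others in its library. In EX the median log2 fold change of all 345 miRNAs from 25 to 30 months was −0.51 with TMM normalization, which sets libraries on a common scale by the bulk of their miRNAs. It was −0.04 when only library totals were used and −0.82 when libraries were scaled to bta-miR-93, the miRNA the study used as its qPCR reference. On these scales in turn, bta-miR-26a changed by −1.77, −1.32 and −2.21, and bta-miR-26b by −1.02, −0.57 and −1.43. Relative to the medians, bta-miR-26a changed by −1.26, −1.28 and −1.39, and bta-miR-26b by −0.51, −0.53 and −0.60. Subtracting the median of the same fit removes most of a change of scale. Such values were therefore bound to be close across scales, in FC as in EX. In FC the medians were −0.20, −0.08 and −0.74, and bta-miR-26a changed relative to them by −1.30, −1.28 and −1.31. The corresponding values of bta-miR-26b in FC were −0.18, −0.17 and −0.18.

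bta-miR-93 itself had log2 fold changes of 0.37 in EX (standard error 0.30, FDR 0.469) and 0.54 in FC (standard error 0.21, FDR 0.102) from 25 to 30 months. Its mean CPM was 11388 ± 3259 at 25 months and 20044 ± 5769 at 30 months in EX, and 11944 ± 1966 and 19049 ± 4006 CPM in FC. Ratios to bta-miR-93 therefore gave larger falls of both family members than library totals did.

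**Figure D3:**
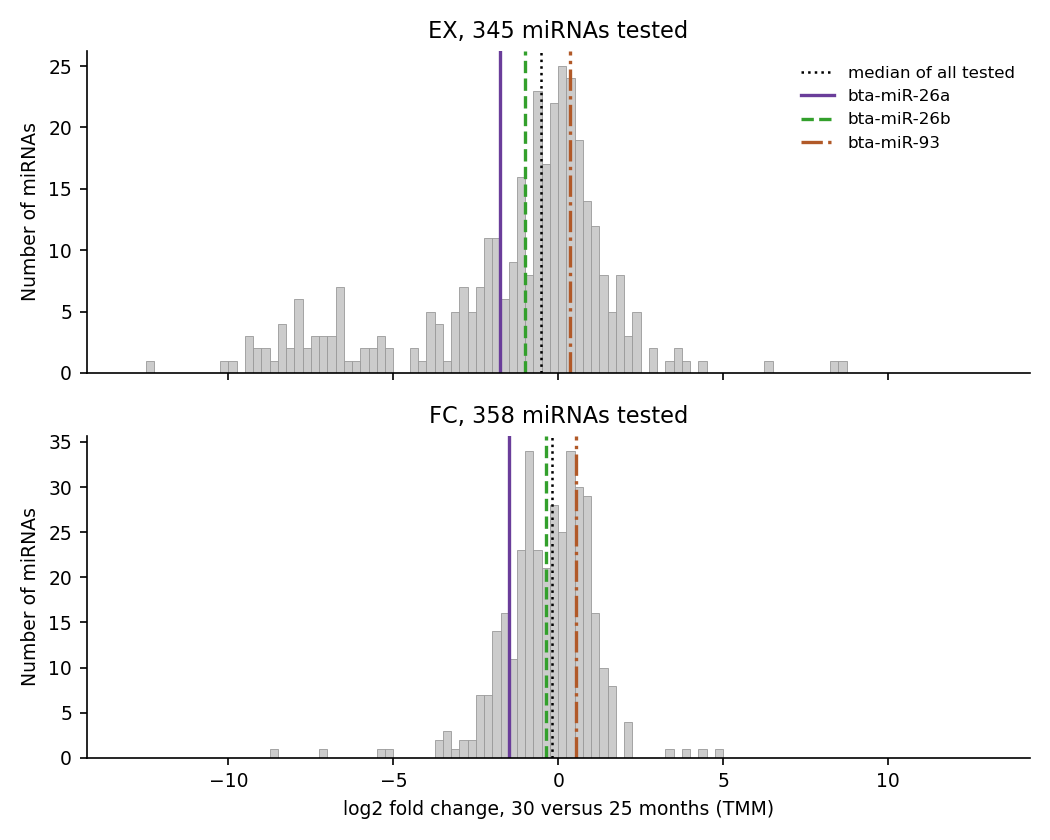
Number of miRNAs by log2 fold change from 25 to 30 months (TMM-normalized counts, bins of equal width), for 345 miRNAs in EX (top) and 358 in FC (bottom). Vertical lines mark bta-miR-26a (−1.77 and −1.50), bta-miR-26b (−1.02 and −0.38), bta-miR-93 (0.37 and 0.54) and the median of all miRNAs tested (−0.51 and −0.20); both family members lie to the left of the median in each fraction.

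Against 20 months, the levels at 30 months did not pass for either member. bta-miR-26a had a log2 fold change of −0.80 in EX (standard error 0.38, FDR 0.204), where 14.2% of the miRNAs passed. In FC it was −1.06 (standard error 0.39, FDR 0.114) with 7.26% passing, although its 3 libraries at 30 months were below all 3 at 20 months, a pattern held by 22.1% of FC miRNAs. bta-miR-26b had −0.65 in EX (standard error 0.28, FDR 0.151) and −0.32 in FC (standard error 0.29, FDR 0.494). Leaving out each steer in turn, bta-miR-26a ranged from −1.22 without steer 1 to −0.38 without steer 2 in EX, and from −1.56 to −0.76 without these steers in FC. bta-miR-26b ranged from −0.92 to −0.48 without the same steers in EX, and from −0.65 without steer 1 to −0.062 without steer 3 in FC. None of these passed, and the miRNAs that passed came to 0, 15 and 13 in EX in place of 49, and to 8, 5 and 21 in FC in place of 26, without steer 1, 2 and 3.

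From 20 to 25 months, bta-miR-26a was higher in 3 of 3 steers in EX, by log2 CPM differences of 0.35, 0.72 and 1.45. Its log2 fold change was 0.97 (standard error 0.38, unadjusted p = 0.0322 in edgeR), but the FDR was 0.998. Only 0.290% of the EX miRNAs passed in this comparison, and 2.61% had their 25 months libraries all above those at 20 months, as bta-miR-26a had. In FC the log2 fold change was 0.44 (standard error 0.38, FDR 0.999). For bta-miR-26b it was 0.37 in EX (standard error 0.28, FDR 0.998) and 0.05 in FC (standard error 0.29, FDR 0.999). Without steer 3 the value of bta-miR-26a was 0.55 in EX and 0.10 in FC, and without steer 2 it was 1.26 and 0.73. For bta-miR-26b in EX it was 0.24 without steer 3 and 0.50 without steer 1, and in FC the range was −0.058 to 0.088. In FC 0% of the miRNAs passed between 20 and 25 months, with 13 of 358 at an unadjusted p under 0.05 in edgeR and 0 passing in DESeq2.

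The share of bta-miR-26a among the counts of both members does not depend on how libraries are scaled. In EX the shares of steers 1, 2 and 3 were 19.1%, 22.6% and 17.5% at 20 months. By 25 months they were 24.6%, 24.8% and 31.9%, and by 30 months 19.9%, 16.2% and 18.3%. The 25 months libraries stood above all others, and 20 and 30 months overlapped. In FC the shares were 20.0%, 28.1% and 22.0% at 20 months. By 25 months they were 25.9%, 26.7% and 32.0%, and by 30 months 15.6%, 16.0% and 14.0%. All 3 FC libraries at 30 months were below all 6 at the earlier ages.

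On the log2 scale, the ratio of bta-miR-26a to bta-miR-26b in FC at 30 months differed from the mean of 20 and 25 months by −0.68, −0.99 and −1.16 in the 3 steers (mean difference −0.94 ± 0.24, SD). An exact two-sided permutation test, in which any age of a steer could take the place of 30 months (27 arrangements), gave p = 0.037, the smallest p this design allows, and 0.111 after Benjamini-Hochberg adjustment over 3 ratio tests. In EX the mean difference was −0.44 ± 0.26, lower in 3 of 3 steers, with an exact p = 0.259 (adjusted 0.389). In FC the ratio at 30 months was below that at 20 and at 25 months in 3 of 3 steers. In EX it was below that at 25 months in all 3, but above that at 20 months in steers 1 (−2.01 against −2.09) and 3 (−2.15 against −2.24). The FC test already gave its smallest p, and with the p-values of the other tests no lower adjusted value could be reached.

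**Figure D4:**
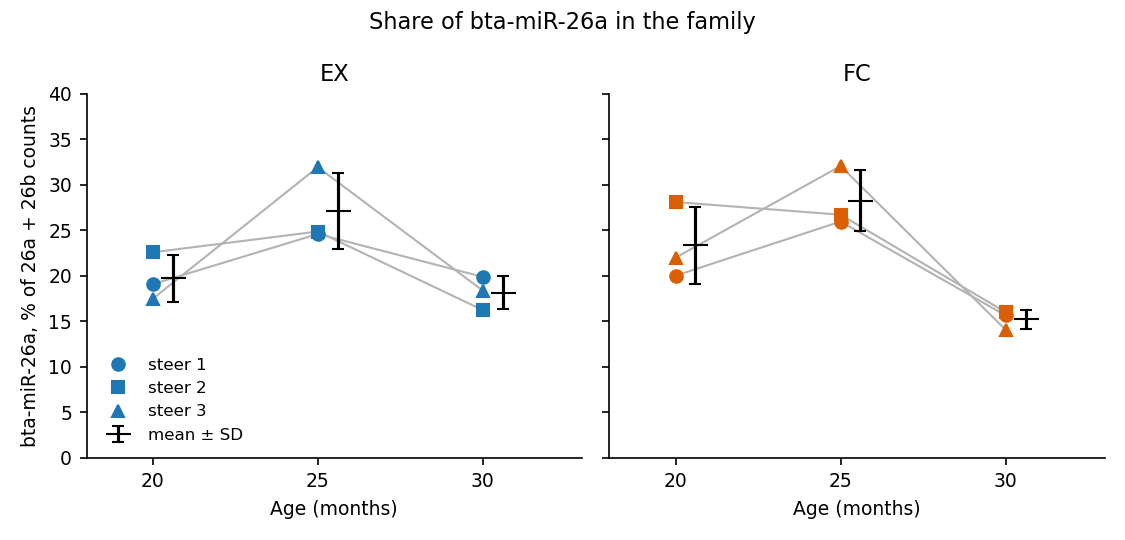
Counts of bta-miR-26a as a percent of the counts of bta-miR-26a and bta-miR-26b, against age in months, in EX (left) and FC (right). Symbols are libraries of steers 1, 2 and 3, grey lines join a steer, and black bars give the mean ± SD of 3 libraries; in FC the shares at 30 months (14.0% to 16.0%) lie below all shares at 20 and 25 months (20.0% to 32.0%).

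The 2 fractions were compared within each plasma sample, which entered the fit as a block, over the 330 common miRNAs. The log2 fold change of EX against FC for bta-miR-26a was −0.52 at 20 months (standard error 0.19, interval −0.94 to −0.09, FDR 0.171), 0.07 at 25 months (FDR 0.920) and −0.08 at 30 months (FDR 0.769). None of these passed, while 9.39%, 6.97% and 21.8% of the miRNAs did at 20, 25 and 30 months. At 20 months the log2 CPM differences of the 3 steers were 0.04, −0.59 and −0.86, so steer 1 did not share the lower EX level. Leaving out each steer in turn gave −0.63 to −0.20 at 20 months (−0.20 without steer 3) and 0.15 to 0.27 at 25 months. At 30 months it gave −0.41, −0.024 and −0.38 without steer 1, 2 and 3, and none of these passed. The miRNAs that passed fell from 31 to between 9 and 13 at 20 months and from 23 to between 5 and 12 at 25 months, and from 72 to between 61 and 70 at 30 months. The sign at 30 months turned to 0.18 with library totals and to 0.12 when scaled to bta-miR-93.

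For bta-miR-26b the log2 fold changes of EX against FC were −0.21 (FDR 0.503), 0.15 (FDR 0.659) and −0.38 (standard error 0.13, interval −0.67 to −0.10, FDR 0.0529) at the 3 ages. The last value missed the threshold closely and passed in 7 of 13 alternative analyses (FDR 0.00765 to 0.543), with the same sign in all of them. It was −0.65 without steer 1 and −0.60 without steer 3, and both passed. At 20 months the value was 0.051 without steer 3, and at 25 months it ranged from 0.28 to 0.33 when a steer was left out. In log2 CPM, EX minus FC at 30 months was −0.14, −0.17 and −0.07 in the 3 steers, lower in all of them. On library totals, as in these values, the log2 fold change was −0.13 (FDR 0.392). The median of all 330 miRNAs at 30 months was −0.55, and the values of bta-miR-26a and bta-miR-26b lay 0.47 and 0.17 above it. This median weighs scarce and abundant miRNAs alike, and EX at 30 months had the lowest median depth of the groups (1082798 counts). The distance from the median was not tested. Over all 9 plasma samples, the log2 ratio of bta-miR-26a to bta-miR-26b in EX minus FC was −0.03 on average (SD 0.31, exact two-sided sign-flip test p = 0.703, adjusted 0.703). Those 9 samples came from 3 steers and are not fully independent.

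Sequencing depth and the number of miRNAs detected moved with age. An EX library held 1837454 to 2437284 counts at 25 months, against 991354 to 1988408 at 30 months. In FC the totals were 6958135 to 11065929 and 3615234 to 4871908. An EX library detected 381 to 418 of the listed miRNAs at 25 months and 258 to 296 at 30 months. For FC libraries the numbers were 582 to 671 and 398 to 452. The lowest count of a library was 2065 for bta-miR-26a and 10673 for bta-miR-26b. These counts bound counting error only, because reads copied by PCR are not independent molecules. The part of depth in the changes with age was not tested.

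Plasma RNA is released by many cell types, and in such bulk samples fewer releasing cells and less miRNA released per cell cannot be told apart. Markers of blood cells moved in part with the family. Of all miRNAs tested, 10.7% passed as lower at 30 than at 25 months in EX and 11.7% in FC. The lymphocyte markers bta-miR-150 and bta-miR-342 both passed as lower in both fractions. The log2 fold changes were −4.06 in EX and −3.38 in FC for bta-miR-150, and −2.31 and −1.81 for bta-miR-342. Their summed EX level lay between 113415 and 324692 CPM at 25 months and between 13723 and 27464 CPM at 30 months. The FC level lay between 80690 and 230827 CPM and then between 14651 and 26926 CPM. A list of myeloid markers held bta-miR-223 and also bta-miR-142-3p and bta-miR-142-5p, which blood cells make more widely. The latter 2 passed as lower in EX (log2 fold changes −2.34 and −1.96) and bta-miR-142-3p in FC (−2.44). bta-miR-142-5p missed the threshold in FC (−1.20, FDR 0.0558), with a mean of 46850 ± 17277 CPM at 25 months and 22161 ± 3454 CPM at 30 months. bta-miR-223 did not pass, with log2 fold changes of −0.23 in EX (FDR 0.797) and 0.67 in FC (FDR 0.243), where its mean was 32559 ± 17484 CPM at 25 months and 52602 ± 5997 CPM at 30 months. The summed EX level of all 3 lay between 60848 and 77663 CPM at 25 months and between 36475 and 48305 CPM at 30 months. In FC the ranges were 75423 to 87261 and 69501 to 86490 CPM.

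Of the red cell markers bta-miR-451, bta-miR-486 and bta-miR-144, bta-miR-451 fell in EX (log2 fold change −2.20, FDR 0.0269), and 0 of 3 passed in FC in edgeR, with 1 at an unadjusted p under 0.05 and 1 in DESeq2. The shares of all miRNAs that passed in edgeR were 14.8% in EX and 18.7% in FC. bta-miR-451 had a log2 fold change of −1.68 in FC (FDR 0.0516), with a mean of 13687 ± 6387 CPM at 25 months and 4515 ± 1053 CPM at 30 months. bta-miR-486, the most abundant of the 3, had log2 fold changes of −0.035 in EX (FDR 0.976) and 0.41 in FC (FDR 0.552), and bta-miR-144 had −1.76 (FDR 0.0767) and −0.56 (FDR 0.461). Their summed EX level lay between 28558 and 92244 CPM at 25 months and between 34776 and 54074 CPM at 30 months. In FC the ranges were 18948 to 46802 and 21521 to 34381 CPM. The log2 ratio of bta-miR-451 to bta-miR-23a, a common measure of haemolysis, lay in EX between 0.55 and 1.62 at 25 months and between −0.89 and −0.21 at 30 months. The FC ranges were −0.12 to 0.54 and −1.24 to −0.40. The summed levels of the hepatocyte markers bta-miR-122 and bta-miR-885 at these ages were 12268 to 73054 and 35472 to 108600 CPM for EX. For FC they were 18960 to 75397 and 23010 to 97366 CPM. These sums are nearly all bta-miR-122, which had log2 fold changes of 1.04 in EX (FDR 0.166) and 0.72 in FC (FDR 0.287). The scarce bta-miR-885 fell in FC from 22.3 ± 3.20 to 0.175 ± 0.304 CPM (FDR 0.00673), and in EX its level was 50.8 ± 23.8 and then 23.4 ± 40.5 CPM (FDR 0.454). Those of bta-miR-126-3p and bta-miR-126-5p, of platelets and endothelium, were 11346 to 24181 and 18148 to 30970 CPM for EX. For FC they were 5657 to 27751 and 10302 to 22156 CPM. No marker of these 5 lists was at 0 in all libraries of a group, and the part of any of these cells in the results for the family was not tested.

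The miRNAs most like each member were taken by Pearson's r of log2 CPM over the 9 libraries of a fraction. These libraries come from 3 steers and share the step at 30 months, so the values are descriptions. In EX, bta-miR-26a and bta-miR-26b were each other's closest miRNA, with r = 0.97 (Spearman's rho 0.95). Next to bta-miR-26a came bta-miR-31 (0.96) and bta-miR-155 (0.95), a miRNA known from activated lymphocytes and myeloid cells. Next to bta-miR-26b came bta-miR-142-3p and bta-miR-142-5p (0.96 each), which blood cells make from a common hairpin.

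In FC, r between the members was 0.86 (rho 0.75). bta-miR-26b was only the 37th closest miRNA to bta-miR-26a, whose nearest were bta-miR-155 and bta-miR-374a (0.98 each) and bta-miR-142-3p (0.96). The nearest of bta-miR-26b were bta-let-7i (0.90), bta-miR-16a and bta-let-7f (0.87 each), and bta-miR-26a held place 4. The difference between the fractions in these correlations was not tested.

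Other miRNAs of the processes for which the family is known were read from 2 lists. Of 22 miRNAs known from adipocyte differentiation, all 22 were selected in both fractions. From 25 to 30 months in EX, 4 rose, 2 fell and 16 did not pass, with a median log2 fold change of −0.15 against −0.51 for all miRNAs. This is 18.2% higher and 9.09% lower, beside 4.06% and 10.7% of all EX miRNAs. The 3 with the smallest FDR were bta-miR-130b, which rose from 187 ± 175 to 1007 ± 456 CPM (log2 fold change 2.25, FDR 0.0073), bta-miR-130a, which rose from 326 ± 135 to 1142 ± 216 CPM (1.43, FDR 0.0117), and bta-miR-31, which fell from 317 ± 120 to 97.2 ± 25.9 CPM (−2.18, FDR 0.0299). The miR-130 pair is known for repression of PPARG, the main regulator of fat cell differentiation.

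In FC, 1 of the 22 rose, 4 fell and 17 did not pass, with a median of −0.05 against −0.20. The 22.7% that passed was near the 18.7% of all FC miRNAs. bta-miR-222 fell from 945 ± 346 to 413 ± 76.1 CPM (log2 fold change −1.26, FDR 0.0118) and bta-miR-31 from 296 ± 118 to 67.3 ± 30.5 CPM (−2.30, FDR 0.0254). bta-miR-148a, which promotes adipogenesis in cultured cells, rose from 6290 ± 2139 to 12985 ± 2446 CPM (0.96, FDR 0.0261). bta-miR-31 thus fell with bta-miR-26a in both fractions.

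Of 8 miRNAs directed at EZH2, among them bta-miR-101 and the let-7 members, 6 were selected in each fraction. Of these 0 passed in EX in edgeR, with 0 at an unadjusted p under 0.05 and 0 in DESeq2, and 0 passed in FC, with 3 at an unadjusted p under 0.05 and 3 in DESeq2. Of all miRNAs, 14.8% passed in EX and 18.7% in FC. The list medians were −0.32 in EX and −0.54 in FC, against −0.51 and −0.20.

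candidate-miR-26, which has a base other than that of the family inside its seed, had few counts in every library. Its counts ranged from 0.5 to 11.75 in EX, with a median of 3.17, and from 3.25 to 33.75 in FC, with a median of 21.17. In CPM the range was 0.251 to 5.19 for EX and 0.899 to 3.52 for FC, and only 1 of the 9 EX libraries and 0 of the 9 FC libraries exceeded 5 CPM, so it was not tested. Its counts were far below those of bta-miR-26b in every library, and whether they are reads of bta-miR-26b with mismatches cannot be told from the tables. Its counts in EX at 30 months were 0.5, 1 and 1.83, below the limit of 3 counts. In 4 of the FC libraries its counts were recomputed from the CPM values.

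**Figure D5:**
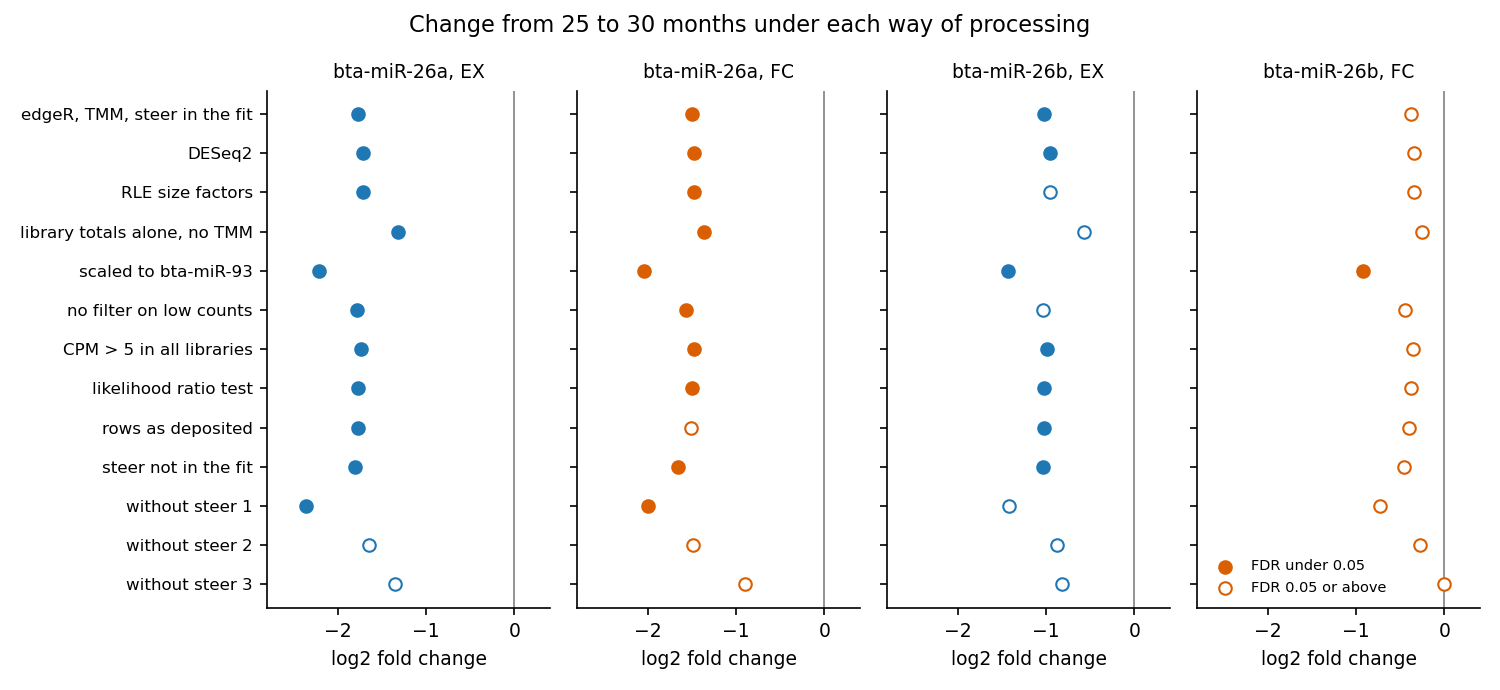
Log2 fold change from 25 to 30 months of bta-miR-26a and bta-miR-26b in EX and FC (panels) under the analysis of the text (top line) and 12 alternatives. Filled points have an FDR under 0.05; the points of bta-miR-26a span −2.36 to −1.32 for EX and −2.05 to −0.91 for FC, and those of bta-miR-26b in EX between −1.43 and −0.57.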

How the data were processed

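The members and lists were chosen with earlier results of these data known. The authors trimmed reads with Cutadapt 5.0 and Trimmomatic 0.39, mapped them with miRDeep2 to a Japanese Black genome derived from ARS-UCD1.2, and counted them against miRBase. They deposited expected counts (not whole where reads were shared) and CPM values made from them. In 4 FC libraries, counts low in the table stood in other rows than the CPM values and were recomputed from CPM. The rows of the family were not affected. Groups came from the labels. The replicate number marks the same steer at each age, since the study's list of plasma samples ends each name in the number of the individual. Deviations from group means correlated at 0.025 between libraries of a steer in EX and 0.12 in FC. The values of −0.012 and −0.060 between steers follow from these, because deviations within a group sum to 0. The pairing thus rests on the sample names.

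Counts were rounded, filtered (CPM > 5 in at least 3 of 9 libraries), TMM-normalized and fitted in edgeR 4.0.16 (R 4.3.3, limma 3.58.1), with steer, or plasma sample between fractions, as a block. Standard errors are |log2 fold change| divided by the root of F. DESeq2 1.42.0, other scalings, filters and blocks and leaving out a steer were alternatives. Exact tests and figures used Python 3.11.15 with scipy 1.17.1, numpy 2.4.6, pandas 2.3.3 and matplotlib 3.10.9. On simulated counts, the EX test of 30 against 25 months (345 miRNAs) recovered 18% of changes of 1 and 33% of changes of 2 on the log2 scale, and the FC test (358 miRNAs) 27% and 62%. Named were the members, miRNAs that share their seed, candidates matching bta-miR-26a or bta-miR-26b at 15 or more positions, bta-miR-93, the cell markers, the 3 miRNAs most correlated with each member and at most 3 passing miRNAs a list. Columns of the authors' comparisons were not used. Another list of miRNAs, grouped by a shared target, is not reported here.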

Additional observations from a re-analysis of the deposited data

Results flagged for a closer look

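The difference between EX and FC in bta-miR-26b had opposite signs at 25 and 30 months in all 3 steers. In log2 CPM, EX minus FC was 0.17 on average at 25 months, positive in 3 of 3 steers, and −0.13 at 30 months, negative in 3 of 3. The test of this change in the edgeR model gave a difference of −0.53 with an FDR of 0.107 over 330 miRNAs, which did not pass. That value is on TMM-normalized counts, and on library totals, as for CPM, it was −0.30 (FDR 0.238).

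The log2 ratio of bta-miR-26a to bta-miR-26b, as EX minus FC, was negative in 3 of 3 steers at 20 months (mean −0.31) and at 25 months (mean −0.084), and positive in 3 of 3 at 30 months (mean 0.30). Its smallest values were −0.01 at 25 months and 0.02 at 30 months, each in 1 steer. The difference between ages in this ratio was not tested.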

How the results depend on the processing

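The log2 fold change of bta-miR-26a from 25 to 30 months kept its sign in all 12 alternatives in both fractions and passed in 10 of them in EX and 9 in FC. It did not pass in FC with rows as deposited (−1.52). The fall of bta-miR-26b in EX did not pass with RLE size factors (−0.96), library totals (−0.57) or no filter on low counts (−1.03). In FC it passed only when scaled to bta-miR-93 (−0.92). The log2 fold change of bta-miR-26a from 20 to 30 months in FC passed when scaled to bta-miR-93 (−1.47), without the filter (−1.15), with CPM > 5 in all libraries (−1.07) and by the likelihood ratio test (−1.06). For EX against FC, DESeq2 called bta-miR-26a at 20 months (−0.43) and bta-miR-26b at 25 months (0.28). bta-miR-26b at 30 months passed in DESeq2 (−0.32), with RLE (−0.32), without the filter (−0.43), with CPM > 5 in all libraries (−0.33) and with rows as deposited (−0.35). Its difference between fractions in the change from 25 to 30 months passed in DESeq2 (−0.60), with RLE (−0.60), with CPM > 5 in all libraries (−0.58) and with rows as deposited (−0.59). With library totals it was −0.30 (FDR 0.238), with steer as the block −0.51 (FDR 0.583) and with no block −0.51 (FDR 0.670). The cause of these changed calls was not tested.

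Signs turned only in differences that did not pass. With library totals, EX against FC in bta-miR-26a at 30 months became 0.18, its fraction difference from 25 to 30 months 0.090, and bta-miR-26b in FC from 20 to 25 months −0.094. Scaled to bta-miR-93, EX against FC became 0.12 for bta-miR-26a at 30 months and 0.064 for bta-miR-26b at 20 months.

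Without the replicate block of steer, no call of either member changed (bta-miR-26a from 25 to 30 months −1.81 in EX and −1.66 in FC, bta-miR-26b in EX −1.03). Without plasma sample as a block, EX against FC in bta-miR-26b at 30 months was −0.37 (FDR 0.504), and with steer in its place −0.38 (FDR 0.425).

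Leaving out each steer in turn gave ranges of −2.36 to −1.35 for bta-miR-26a from 25 to 30 months in EX, −2.003 to −0.91 in FC, and −1.42 to −0.82 for bta-miR-26b in EX. bta-miR-26b ranged from −0.058 to 0.088 in FC from 20 to 25 months, and in EX against FC from −0.21 to 0.051 at 20 months and −0.65 to −0.46 at 30 months. Its fraction difference from 25 to 30 months ranged from −0.93 to −0.79, and that of bta-miR-26a from −0.61 to −0.30. The log2 ratio of the 2 members ranged from −1.07 to −0.83 in FC, where 2 steers cannot give an exact p under 0.05, and from −0.083 to 0.045 in EX minus FC.

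Of counts of miRNAs past the threshold, that of EX from 25 to 30 months was 51, with 98 in DESeq2, 94 by the likelihood ratio test and 15, 25 and 1 without steer 1, 2 and 3. In FC it was 67, with 117 and 109, 10 with rows as deposited, and 26 and 10 without steer 1 and 3. EX against FC at 30 months gave 72, with 151 in DESeq2 and 111 by the likelihood ratio test. The fraction difference gave 23, with 59 in DESeq2, 44 by the likelihood ratio test, 37 with library totals, 14 without the filter or with CPM > 5 in all libraries, and 10, 0 and 2 without steer 1, 2 and 3. From 20 to 30 months the counts were 49 (0 to 91) in EX and 26 (2 to 71) in FC, and from 20 to 25 months 1 (0 to 3) in EX. EX against FC gave 31 (2 to 54) at 20 months and 23 (5 to 46) at 25 months. The lowest count of either member was 2065, which bounds counting error only.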
